A study of Mus musculus with 90 samples.

Results

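Gene expression was compared in the amygdala of resident male mice 120 min after a social challenge or a control exposure. The comparison takes in 10 of the 90 libraries of the series, chosen by their labels as amygdala at 120 min, with 5 animals per condition numbered 1, 2, 3, 4 and 6. Residents were C57BL/6J males that had lived with a female, who was removed before testing. In the intruder group a caged, unfamiliar BALB/c male stood in the resident's cage for 5 min. In the control group the same cage held a paper cup. A wire mesh kept the males apart. The residents carried no stated allele, and no drug was given in either group. The whole series covers 3 brain regions (amygdala, hypothalamus and frontal cortex) at 30, 60 and 120 min in 18 groups. The submitters write that RNA samples were pooled for library preparation without saying how, so the animal is taken here as the replicate, as their replicate counts do.

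The amygdala receives pheromonal and other sensory input and takes part in threat assessment, aggression and social memory. Neurons that are driven hard transcribe immediate-early genes such as Fos within minutes, and those transcripts decay before secondary genes peak. Adrenal glucocorticoids, released during social stress, add a slower wave through their nuclear receptor, and stressed cells of many kinds transcribe chaperones, the proteins that help others fold.

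The 10 libraries held 44.3 to 52.4 M reads assigned to genes, and 21062 to 21620 genes had at least 1 read. The labelled region was checked against 10 amygdala markers, whose mean log2 CPM was 4.46 to 5.10 in these libraries, 3.71 to 4.41 in hypothalamus and 3.77 to 4.52 in frontal cortex at the same time. The amygdala and frontal cortex ranges therefore touch. Hypothalamic markers lay at 1.08 to 2.07 in amygdala against 5.08 to 6.31 in hypothalamus. The dissections were not alike: striatal markers summed to 1231, 1522, 3630.0, 1430.3 and 3258 CPM in intruder libraries and 1293, 958, 963, 1450.0 and 3419.9 CPM in controls, each list of values here and below running over replicates 1, 2, 3, 4 and 6. Intruder 3, intruder 6 and control 6 thus carried more striatal RNA than the rest. CPM gives reads relative to the scaled total of gene reads of a library. All 5 controls carried 1 leading library index and 4 of the 5 intruder libraries carried another. Only intruder 6 shared the index of the controls, so index and condition can be told apart only through that library.

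Intruder exposure was followed by small differences in a limited set of genes. Of 17277 genes tested, 93 (0.538%) were called at an edgeR quasi-likelihood adjusted p below 0.05, and 2617 (15.1%) had an unadjusted p below 0.05. Of those called, 51 were higher (0.295%) and 42 lower (0.243%) in intruder libraries. The median size of the change was 0.24 on the log2 scale among the higher genes, a factor of 1.18, and 0.27 among the lower ones, a factor of 1.20. In 43 of the 51 higher and 34 of the 42 lower genes no intruder library overlapped a control, which held for 3.15% of all tested genes (1.55% higher, 1.6% lower). Without pooling the spread of the other amygdala groups, that is in a fit of these 10 libraries alone, no gene was called (0 of 16595, with 2377 genes at an unadjusted p below 0.05 in edgeR). With the index as a block the count was also 0 (1934 unadjusted).

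**Figure D1:**
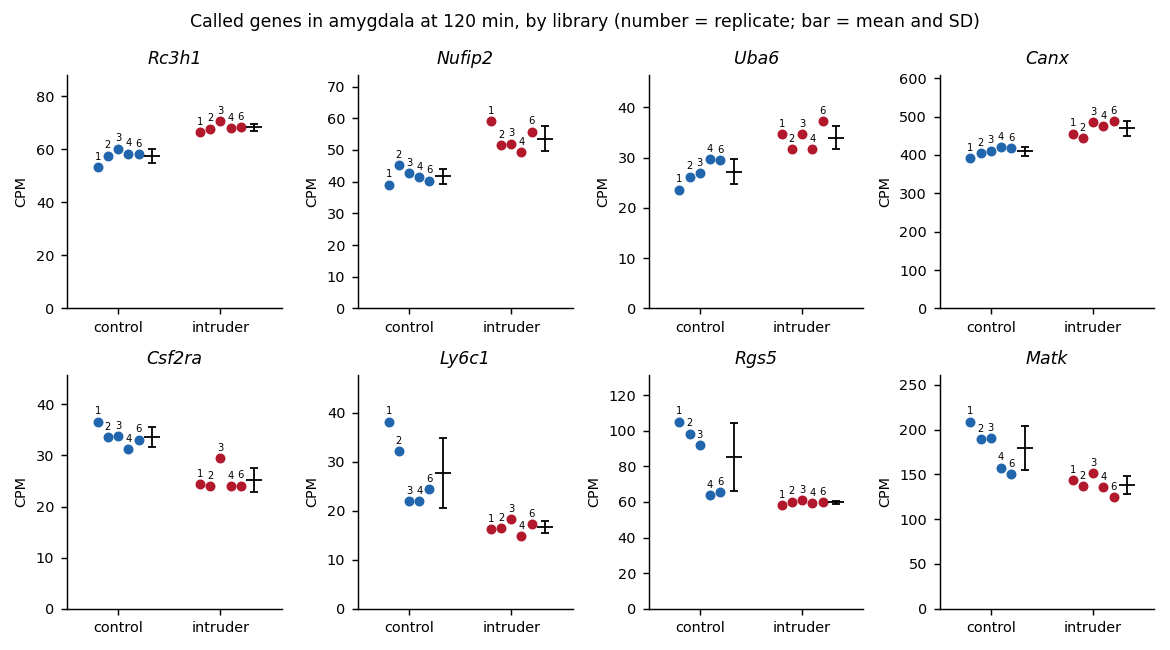
CPM of 8 called genes in each amygdala library at 120 min, controls in blue and intruder libraries in red, with the replicate number above each point and the mean and SD beside it. The upper genes are higher and the lower genes lower in intruder libraries, and only Matk has overlapping groups among those plotted.

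By adjusted p, Rc3h1 and Nufip2 headed the higher genes, and both act on messenger RNA. Rc3h1 (roquin-1; ENSMUSG00000040423), an RNA-binding ubiquitin ligase that promotes the decay of its target messages, was at 66.5, 67.8, 70.5, 68.0 and 68.3 CPM in intruder libraries and 53.2, 57.6, 60.2, 58.4 and 58.3 CPM in controls. Its lowest intruder library lay above its highest control, and its log2 fold change was 0.25 ± 0.036 (SE; adjusted p 0.00499). Nufip2 (ENSMUSG00000037857), a binding partner of roquin and of the fragile X protein, was at 59.0, 51.5, 52.0, 49.3 and 55.8 CPM in intruder libraries and 39.0, 45.3, 42.6, 41.4 and 40.3 CPM in controls, again without overlap, a change of 0.36 ± 0.058 (SE; adjusted p 0.00760). Fxr1, a fragile X related RNA-binding protein, was at 80.5, 70.6, 88.1, 74.95 and 87.7 CPM in intruder libraries and 63.7, 69.2, 67.5, 70.4 and 69.4 CPM in controls. Intruder 2 came closest to the controls for Fxr1, and the log2 fold change was 0.24 ± 0.050 (SE; adjusted p 0.0282).

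Those 3 were the called members of a list of 53 RNA decay and RNA-binding genes (all genes 0.295% called higher). None of the list was called lower (all genes 0.243%). The list median was 0.05 against 0.00072 over all tested genes, on the log2 scale. Leaving out 1 library moved it between 0.022 and 0.046, the lowest without control 1. At an unadjusted p below 0.05, 12 members were higher (all genes 7.45%) and 2 lower (7.69%). The higher ones included Tnrc6b, a scaffold of microRNA silencing, at 0.28 ± 0.074 (adjusted p 0.0684), Ago3, an Argonaute protein, at 0.27 ± 0.079 (adjusted p 0.100), and the deadenylase subunit Cnot6l at 0.17 ± 0.052 (adjusted p 0.114). The lower ones were Edc4 at -0.16 ± 0.058 and Cnot10 at -0.15 ± 0.051, neither past the adjusted threshold. After the correction for GC content and length described below, 26 members were above and 27 below 0, with 6 higher and 3 lower at an unadjusted p below 0.05 and 2 called. Outside the list, called genes that bind or process RNA went both ways, and 5 are given here, picked out by role after their values were seen. Pura, a single-stranded nucleic acid binding protein of neurons, rose by 0.23 ± 0.048 (SE; adjusted p 0.0261), and Paip2b, a repressor of translation that binds the poly(A)-binding protein, by 0.22 ± 0.053 (SE; adjusted p 0.0491). Smg9, a regulator of nonsense-mediated decay, was lower, at -0.21 ± 0.045 (SE; adjusted p 0.0332), as were the splicing factors U2af1l4 at -0.23 ± 0.051 (SE; adjusted p 0.0332) and Sugp1 at -0.19 ± 0.042 (SE; adjusted p 0.0379).

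Several called genes act on ubiquitin. They were grouped here by their known roles after their values had been seen, so the grouping is a description. Uba6, which activates ubiquitin for its transfer to substrates, was at 34.7, 31.7, 34.7, 31.8 and 37.2 CPM in intruder libraries and 23.7, 26.2, 27.0, 29.7 and 29.6 CPM in controls. Control 4 and control 6 were the highest controls and still lay below every intruder library, and the change was 0.32 ± 0.055 (SE; adjusted p 0.0127). Ubfd1, a ubiquitin family domain protein, was at 105, 98.8, 109, 98.3 and 108 CPM in intruder libraries and 87.3, 88.1, 85.4, 94.1 and 93.8 CPM in controls, a change of 0.21 ± 0.038 (SE; adjusted p 0.0132). Ubxn7, an adaptor of the unfolding enzyme p97, was at 71.0, 65.5, 69.0, 67.0 and 68.9 CPM in intruder libraries and 54.8, 58.6, 60.0, 62.2 and 59.8 CPM in controls, a change of 0.21 ± 0.039 (SE; adjusted p 0.0198). Neither had overlapping groups. Ubxn4, which ties p97 to the endoplasmic reticulum, rose by 0.17 ± 0.035 (SE; adjusted p 0.0261), and Senp6, a protease that removes SUMO chains, by 0.14 ± 0.032 (SE; adjusted p 0.0441). Ubxn11, another UBX domain protein, went the other way and was at 8.17, 8.61, 8.54, 8.90 and 8.42 CPM in intruder libraries and 11.6, 11.2, 12.6, 10.6 and 10.7 CPM in controls. All its intruder libraries lay below all its controls, with a log2 fold change of -0.41 ± 0.074 (SE; adjusted p 0.0132). Also lower was Fbxw5, a substrate receptor of ubiquitin ligases, at 78.3, 75.05, 80.3, 74.1 and 77.1 CPM in intruder libraries and 95.6, 88.5, 85.8, 81.7 and 86.3 CPM in controls, without overlap and with a change of -0.19 ± 0.036 (SE; adjusted p 0.0200).

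Most chaperones had higher values in intruder libraries. Of 22 listed chaperones and temperature-responsive genes 20 had a log2 fold change above 0, and the list median was 0.27. By edgeR 2 were called, Chordc1 and Hsph1, both higher (all genes 0.295%), and DESeq2 called 7 higher (all genes 1.12%). At an unadjusted p below 0.05 there were 18 higher (all genes 7.45%) and 1 lower (all genes 7.69%). The lower one was Cirbp, an RNA-binding protein known for induction by cold, at -0.21 ± 0.10, and the other cold-induced member, Rbm3, was at -0.06 ± 0.10.

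Chordc1 (ENSMUSG00000001774), a co-chaperone of Hsp90, was at 107, 89.6, 127, 100.04 and 119.8 CPM in intruder libraries and 80.7, 83.8, 83.5, 87.4 and 86.4 CPM in controls. The groups did not overlap, and the log2 fold change was 0.36 ± 0.079 (SE; adjusted p 0.0332). Hsph1 (ENSMUSG00000029657), the Hsp110 chaperone that exchanges nucleotide on Hsp70, was at 499, 361, 586, 422 and 539 CPM in intruder libraries and 349, 379.6, 362, 374 and 378 CPM in controls. Its groups overlapped because intruder 2 lay among the controls, while intruder 1, intruder 3 and intruder 6 stood well above them, and the change was 0.38 ± 0.091 (SE; adjusted p 0.0471). Hspa1b, an inducible Hsp70, was at 31.0, 8.96, 26.7, 14.5 and 29.1 CPM in intruder libraries and 11.6, 15.9, 9.63, 8.42 and 8.25 CPM in controls. Intruder 1, intruder 3 and intruder 6 were again the high ones, and intruder 2 lay among the controls, with a log2 fold change of 1.04 ± 0.34 that was not called (adjusted p 0.146). Its near-identical neighbour Hspa1a, with which it shares reads that cannot be placed uniquely, was at 0.81 ± 0.32 (adjusted p 0.230).

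Members that act in the endoplasmic reticulum lay in the same range. Hspa5 (BiP), the main Hsp70 of that compartment, was at 545, 412, 602, 493 and 575 CPM in intruder libraries and 403, 444, 424, 418 and 378 CPM in controls, a change of 0.35 ± 0.10 (adjusted p 0.101). Pdia4, a disulphide isomerase, was at 0.41 ± 0.11 (adjusted p 0.0745), and Sdf2l1 at 0.46 ± 0.16 (adjusted p 0.153). Of the constitutive cytosolic and mitochondrial members, Hsp90aa1 was at 0.17 ± 0.056, Hspa8 at 0.14 ± 0.064 and Hspd1 at 0.19 ± 0.056, none called. Hspa4 and Hspa4l, relatives of Hsph1, had no overlap between groups, at 0.13 ± 0.040 (adjusted p 0.114) and 0.36 ± 0.10 (adjusted p 0.0829).

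Summed over the list, chaperone transcripts reached 6783, 5989, 7662, 6386 and 7201 CPM in intruder libraries and 6049, 5924, 5801, 6088 and 5940.0 CPM in controls. The controls were nearly level, and intruder 3, intruder 6 and intruder 1 were high in that order. Intruder 3, intruder 6 and control 6 were the libraries high in striatal markers, and the part of this in the chaperone values was not tested. Leaving out any 1 of the 10 libraries kept the list median between 0.21 and 0.31, with 13 to 20 members higher at an unadjusted p below 0.05. The called members numbered 0 without control 1, control 2, control 3, intruder 1, intruder 3 or intruder 6, 1 without control 4 or intruder 4, 3 without control 6 and 4 without intruder 2. Over all genes these fits called 4 higher without control 1, 15 without control 2 and 5 without control 3. They called 10 higher without intruder 1, 22 without intruder 3 and 5 without intruder 6. The others called 59 without control 4, 26 without intruder 4, 82 without control 6 and 54 without intruder 2. The list median was 0.38 with the index as a block (15 members) and 0.21 after correction for GC content and length (16 members). Neither of the 2 calls held with the index block or that correction.

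Heat shock factors bind inverted repeats of the unit GAA. The promoters of the listed genes were searched, after their values were seen, for 3 such units spaced by 2 bases (GAANNTTCNNGAA) on both strands. The windows were 250 bases before to 50 after the annotated start, from RefSeq on GRCm38.p6, and the first listed start of a gene was used. A promoter was found for 16 of the chaperones, of which 3 held the element (18.8%), Hsph1, Chordc1 and Hspe1, against 46 of 12333 tested genes (0.373%). Among all called genes with a promoter, 2 of 36 higher ones held it, Chordc1 and Hsph1, and 0 of 36 lower ones. The 3 promoters are printed 5′ to 3′ because they include both called chaperones, with the matched bases in capitals, overlapping matches running together.
Hsph1 promoter (chr5:149636287-149636586, minus strand): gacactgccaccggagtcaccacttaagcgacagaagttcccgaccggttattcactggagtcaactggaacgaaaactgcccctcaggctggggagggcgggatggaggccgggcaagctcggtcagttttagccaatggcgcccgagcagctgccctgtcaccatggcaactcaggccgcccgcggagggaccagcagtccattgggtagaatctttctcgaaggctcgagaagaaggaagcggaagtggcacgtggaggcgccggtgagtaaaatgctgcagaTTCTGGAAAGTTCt
Chordc1 promoter (chr9:18292017-18292316, plus strand): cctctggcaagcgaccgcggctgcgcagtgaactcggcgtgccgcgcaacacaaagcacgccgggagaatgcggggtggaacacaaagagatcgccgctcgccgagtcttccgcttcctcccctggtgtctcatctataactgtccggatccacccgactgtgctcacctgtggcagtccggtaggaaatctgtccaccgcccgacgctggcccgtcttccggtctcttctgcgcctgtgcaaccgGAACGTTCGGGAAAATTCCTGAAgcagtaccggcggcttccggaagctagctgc
Hspe1 promoter (chr1:55087898-55088197, plus strand): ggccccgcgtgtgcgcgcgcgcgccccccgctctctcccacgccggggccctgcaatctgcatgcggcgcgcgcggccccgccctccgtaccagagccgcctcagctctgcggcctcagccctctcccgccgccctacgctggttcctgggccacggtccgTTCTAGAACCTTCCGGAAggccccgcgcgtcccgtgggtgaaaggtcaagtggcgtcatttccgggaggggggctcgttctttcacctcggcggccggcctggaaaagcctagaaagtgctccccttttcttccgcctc

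The match lies just after the start of Hsph1, runs across the start of Chordc1 as 3 overlapping matches, and begins 89 bases before the start of Hspe1. Hspe1, the mitochondrial co-chaperonin, had a log2 fold change of 0.16 ± 0.10 (adjusted p 0.431) and was not called. A match is a description of letters, not a site of binding. The cyclic AMP response element TGACGTCA stood in 0% of higher, 8.33% of lower and 3.01% of all promoters. The GC-rich SP letters GGGCGG stood in 77.8%, 58.3% and 61.3%, and the promoters themselves had a median GC content of 68%, 56.7% and 60.3%.

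**Figure D2:**
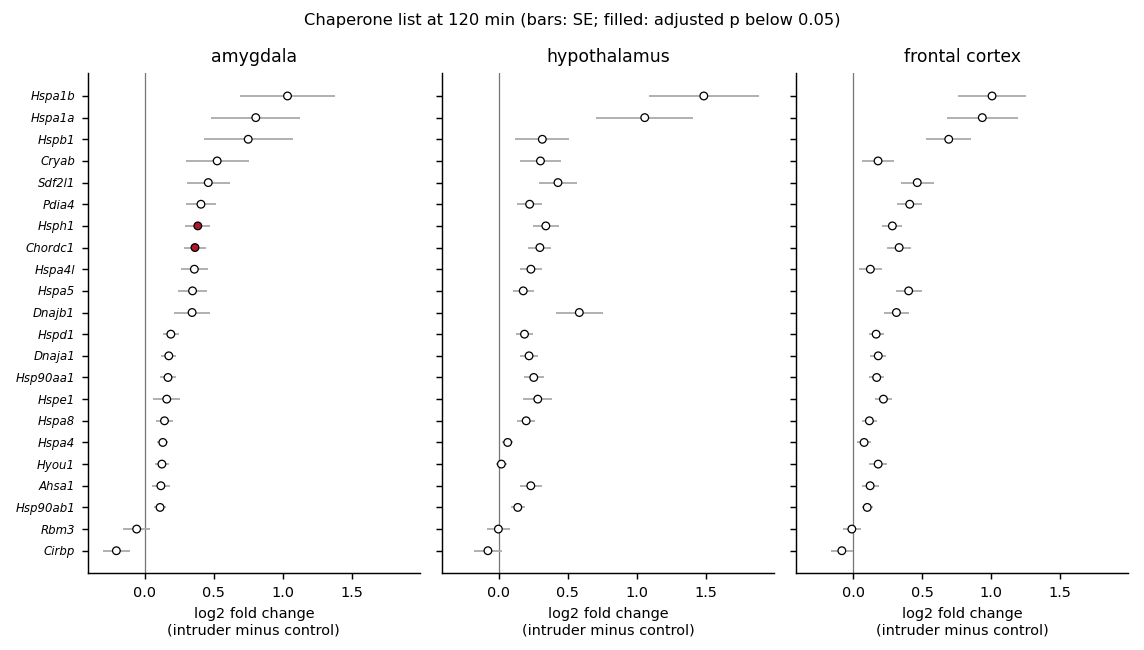
Log2 fold change (intruder minus control) with SE for the 22 listed chaperones and temperature-responsive genes at 120 min in amygdala, hypothalamus and frontal cortex, filled where the adjusted p was below 0.05. Most points lie right of 0 in each region, and Hsph1 and Chordc1 in amygdala are the filled ones.

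Chaperones had similar values in the other regions. In hypothalamus at 120 min, 20 of 22 members were above 0 with a median of 0.23, and 16 were higher at an unadjusted p below 0.05 (5.39% of all genes). In frontal cortex the same counts were 20 and 16 (3.32% of all genes) with a median of 0.18. No member was called in either region. Hspa1b was at 1.49 ± 0.40 and 1.01 ± 0.24, Hsph1 at 0.34 ± 0.092 and 0.28 ± 0.072, and Chordc1 at 0.30 ± 0.083 and 0.33 ± 0.086 in those regions. These are largely other tissue pieces of the same numbered animals and are no independent repeat of the exposure. In hypothalamus at 120 min some controls carried another leading index than the rest. In frontal cortex all controls carried 1 leading index and all intruder libraries another. Index and condition cannot be told apart in frontal cortex. The difference between regions, fitted jointly with the animal as a block, was at an unadjusted p below 0.05 for 2 members in each direction against hypothalamus (all genes 4.18% higher, 4.41% lower) and for 0 against frontal cortex (all genes 4.43%). Earlier in amygdala the list median was -0.04 at 30 min, where 2 members were lower at an unadjusted p below 0.05 (all genes 1.41%). It was -0.00 at 60 min, with 0 members past that level (all genes 7.13%). Tested as a difference of 120 min from the mean of 30 and 60 min, 15 of 22 members were higher (all genes 6.44%) and 1 lower (5.89%) at an unadjusted p below 0.05, with a median of 0.28 and 0 called by edgeR. The 30 min libraries carry another mark in their column names than those at 60 and 120 min. Against 60 min alone, 13 were higher (all genes 3.97%) and 1 lower (5.17%), with a median of 0.29 and 0 called. The leading index followed condition at 60 min too, with most controls carrying the index of most intruder libraries at 120 min. Its part in these values was not tested.

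Other called genes of protein folding lay outside the list and were picked out by role after their values were seen. Canx (calnexin), the lectin chaperone of the endoplasmic reticulum, was at 456, 443, 486, 476 and 488 CPM in intruder libraries and 391, 405, 412, 420.4 and 418 CPM in controls. The groups did not overlap, and the log2 fold change was 0.20 ± 0.038 (SE; adjusted p 0.0200). Dnajc3, a luminal co-chaperone of BiP, rose by 0.31 ± 0.063 (SE; adjusted p 0.0248) and Ero1l, the oxidase that drives disulphide formation, by 0.17 ± 0.038 (SE; adjusted p 0.0378). St13, a cofactor of Hsp70, rose by 0.21 ± 0.047 (SE; adjusted p 0.0378). P4ha1, the catalytic subunit of collagen prolyl 4-hydroxylase, was at 79.9, 55.8, 81.3, 65.5 and 79.5 CPM in intruder libraries and 58.1, 61.0, 51.4, 54.2 and 53.0 CPM in controls. As with Hsph1, intruder 2 lay among the controls, and the change was 0.38 ± 0.084 (SE; adjusted p 0.0342).

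The remaining higher genes served other functions. Anp32e, a chaperone that removes the histone variant H2A.Z, was at 98.9, 97.2, 93.1, 103 and 97.8 CPM in intruder libraries and 83.1, 83.1, 87.3, 82.1 and 86.8 CPM in controls, a change of 0.22 ± 0.037 (SE; adjusted p 0.0131). Nbeal1, a BEACH domain protein, was at 51.1, 47.0, 46.5, 49.0 and 49.8 CPM in intruder libraries and 31.4, 39.3, 39.1, 38.3 and 37.0 CPM in controls, a change of 0.39 ± 0.069 (SE; adjusted p 0.0131). Elovl6, which elongates saturated fatty acids, was at 72.7, 74.0, 84.2, 70.4 and 81.2 CPM in intruder libraries and 59.0, 56.3, 57.3, 64.2 and 66.4 CPM in controls, a change of 0.33 ± 0.064 (SE; adjusted p 0.0198). In all 3 genes every intruder library lay above every control.

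Ints8, a subunit of the Integrator complex that processes small nuclear RNA, was at 40.0, 39.7, 40.0, 37.3 and 39.9 CPM in intruder libraries and 32.5, 35.3, 34.2, 34.6 and 32.9 CPM in controls, a change of 0.22 ± 0.042 (SE; adjusted p 0.0200). Tmem170b was at 102, 96.5, 92.0, 96.3 and 94.8 CPM in intruder libraries and 79.4, 86.4, 85.3, 82.7 and 83.9 CPM in controls, a change of 0.21 ± 0.039 (SE; adjusted p 0.0198). Neither had overlapping groups. Phf6, a chromatin protein with PHD-like fingers, was at 39.9, 39.7, 39.1, 36.9 and 38.4 CPM in intruder libraries and 33.1, 33.5, 34.1, 34.6 and 37.1 CPM in controls. Control 6 reached into the intruder range for Phf6, and the change was 0.17 ± 0.034 (SE; adjusted p 0.0242).

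By size of change 5 higher genes led. Slc5a3, the myo-inositol transporter that cells induce when they must accumulate osmolytes, was at 104, 74.4, 103, 85.8 and 99.3 CPM in intruder libraries and 57.0, 70.6, 71.3, 72.1 and 60.6 CPM in controls. Intruder 2 was again the lowest intruder library but stayed above all controls, and the change was 0.49 ± 0.10 (SE; adjusted p 0.0308). Hmox1, the haem-degrading enzyme induced by oxidative stress, was at 5.25, 4.12, 5.40, 4.06 and 5.56 CPM in intruder libraries and 3.56, 3.89, 4.04, 3.54 and 3.25 CPM in controls, a change of 0.42 ± 0.10 (SE; adjusted p 0.0441). Gclm, the modifier subunit of the enzyme that starts glutathione synthesis, was called as well, at 0.24 ± 0.055 (SE; adjusted p 0.0386), and is named here after its value was seen.

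The other 3 are uncharacterised or unnamed transcripts. A530040E14Rik was at 1.95, 1.61, 2.45, 1.83 and 2.24 CPM in intruder libraries and 1.08, 1.15, 1.07, 1.42 and 1.45 CPM in controls, a change of 0.70 ± 0.16 (SE; adjusted p 0.0410). ENSMUSG00000050459, which has no symbol, was at 1.58, 1.28, 1.05, 1.16 and 1.31 CPM in intruder libraries and 0.828, 0.894, 0.795, 0.678 and 0.889 CPM in controls, a change of 0.64 ± 0.15 (SE; adjusted p 0.0413). ENSMUSG00000091447, also unnamed, was at 10.2, 8.69, 10.2, 12.3 and 9.34 CPM in intruder libraries and 6.66, 7.79, 7.39, 7.48 and 7.69 CPM in controls, a change of 0.45 ± 0.10 (SE; adjusted p 0.0379). None of the 3 had overlapping groups.

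Endothelial genes had lower values in intruder libraries. Of 24 listed endothelial markers 23 had a log2 fold change below 0, and 3 were called lower (all genes 0.243%): Ly6c1, Ly6a and Pglyrp1. At an unadjusted p below 0.05, 15 were lower (all genes 7.69%) and 0 higher, and the median was -0.36. In bulk tissue, fewer cells of a type and less RNA per cell cannot be told apart. Summed endothelial CPM was 433, 453, 486, 434 and 533 CPM in intruder libraries and 716, 672, 522, 462 and 562 CPM in controls. Control 1 and control 2 were the highest of all 10, and controls 3, 4 and 6 lay within or near the intruder range.

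Ly6c1 (ENSMUSG00000079018), a surface protein of brain endothelium with close paralogs, was at 16.3, 16.4, 18.3, 14.9 and 17.3 CPM in intruder libraries and 38.2, 32.2, 21.96, 22.1 and 24.5 CPM in controls. The groups did not overlap, with control 1 and control 2 far above the rest, and the log2 fold change was -0.74 ± 0.13 (SE; adjusted p 0.0132). Ly6a (Sca-1) was at 9.79, 10.4, 12.6, 9.43 and 12.3 CPM in intruder libraries and 20.6, 18.4, 14.0, 13.4 and 17.3 CPM in controls, a change of -0.62 ± 0.15 (SE; adjusted p 0.0444). Pglyrp1, a peptidoglycan recognition protein found in brain endothelium, was at 2.96, 2.50, 3.64, 2.68 and 2.63 CPM in intruder libraries and 8.11, 6.34, 4.53, 3.61 and 3.57 CPM in controls. Intruder 3 overlapped control 4 and control 6, and the change was -0.86 ± 0.19 (SE; adjusted p 0.0342).

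Other blood-brain barrier genes had values in the same direction without a call. The glucose transporter Slc2a1 was at -0.46 ± 0.14 (adjusted p 0.131) with no overlap, the tight junction proteins Cldn5 and Ocln at -0.45 ± 0.19 (adjusted p 0.250) and -0.36 ± 0.092 (adjusted p 0.0634), and Cd34 at -0.37 ± 0.10 (adjusted p 0.0856). Some members had values near 0 or above it: the receptor Kdr was at -0.04 ± 0.21, the junction protein Cdh5 at -0.06 ± 0.21 and Vwf at 0.16 ± 0.32. Of 14 mural cell markers only Rgs5, a regulator of G protein signalling typical of pericytes, was called (all genes 0.243% called lower). It was at 58.3, 60.2, 60.9, 59.4 and 59.9 CPM in intruder libraries and 105, 98.4, 92.1, 63.9 and 65.7 CPM in controls, a change of -0.51 ± 0.12 (SE; adjusted p 0.0379). The intruder libraries were nearly level, and control 4 and control 6 lay just above them. The mural median was 0.04, with Pdgfrb at 0.05 ± 0.13 and Kcnj8 at 0.02 ± 0.17.

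Leaving out control 1 brought the endothelial median to -0.27, with 11 members lower at an unadjusted p below 0.05 and 0 called. Over all 10 such fits it ran from -0.44 to -0.27 with 11 to 16 members. With the index as a block it was -0.15 and 2 members were lower at that level. In hypothalamus at 120 min all 24 members were below 0, with 9 called lower (all genes 0.17%, and 0.192% in either direction), a median of -0.46, and Rgs5 at -0.72 ± 0.10. In frontal cortex 5 of 24 were below 0 with a median of 0.04 and none called. There the leading index and the condition cannot be told apart. Tested as a difference, 15 members were more negative in amygdala than in frontal cortex at an unadjusted p below 0.05 (all genes 2.43%), and 0 were called. Against hypothalamus 5 members were less negative in amygdala (all genes 4.18%) and 0 more negative (4.41%) at that level, and 0 were called. Fibroblast and meningeal markers had higher values in amygdala, with 8 of 8 above 0, a median of 0.59 and none called. At an unadjusted p below 0.05, 3 were higher (all genes 7.45%). Leaving out 1 library moved that median between 0.38 and 0.77 and that count between 0 and 6. In hypothalamus the same 8 were all below 0, with a median of -1.10 and 6 lower at an unadjusted p below 0.05 (all genes 6.13%). Mural markers there had a median of -0.49 with 3 of 14 called lower, and 5 of 5 blood markers were lower at an unadjusted p below 0.05, with a median of -0.57 against -0.02 in amygdala. Their part in the result was not tested.

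**Figure D3:**
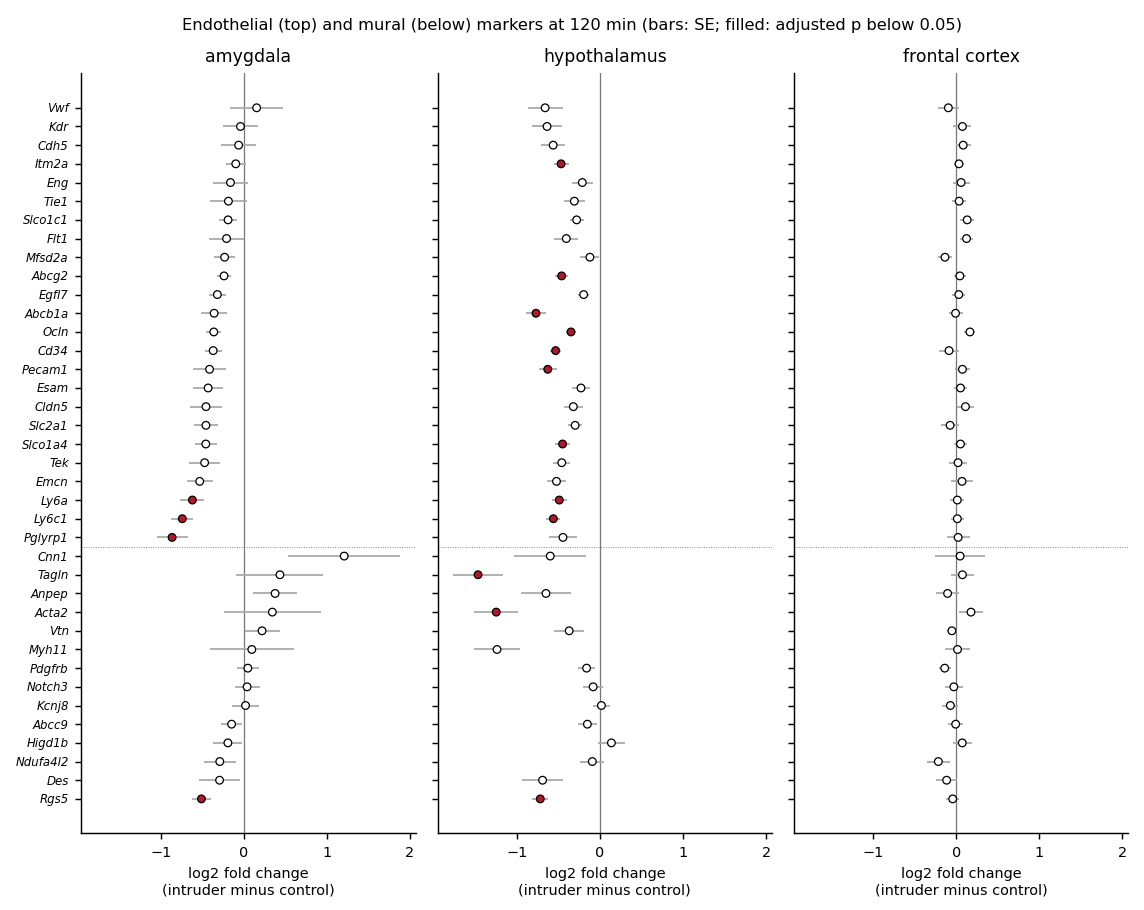
Log2 fold change (intruder minus control) with SE for 24 endothelial (above the dotted line) and 14 mural markers (below it) at 120 min in 3 regions, filled where the adjusted p was below 0.05. In amygdala Pglyrp1, Ly6c1, Ly6a and Rgs5 are filled, and the frontal cortex values lie close to 0.

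Csf2ra (ENSMUSG00000059326), the binding subunit of the receptor for granulocyte-macrophage colony stimulating factor, was the lower gene with the smallest adjusted p. It was at 24.4, 23.9, 29.5, 24.0 and 24.1 CPM in intruder libraries and 36.6, 33.6, 33.9, 31.2 and 33.1 CPM in controls. Intruder 3 stood apart from the other intruder libraries but below all controls, and the log2 fold change was -0.42 ± 0.068 (SE; adjusted p 0.00760). Csf2ra was the only one of 21 microglial markers called (all genes 0.243% called lower). Over all 21 the median was 0.01, and Csf1r was at 0.04 ± 0.056, Csf2rb, the signalling partner of Csf2ra, at 0.01 ± 0.20, P2ry12 at -0.02 ± 0.070 and Tmem119 at 0.04 ± 0.082. Summed microglial CPM was 624 to 733 in intruder libraries and 597 to 722 in controls.

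Other lower genes included neuronal and general cellular ones. Actl6b, a subunit of the neuronal BAF chromatin remodelling complex, was at 67.2, 64.9, 72.2, 63.2 and 62.1 CPM in intruder libraries and 88.0, 81.9, 80.9, 73.5 and 76.3 CPM in controls, a change of -0.28 ± 0.055 (SE; adjusted p 0.0200). Matk, a kinase that restrains Src family kinases, is named here after its values were seen. It was at 143, 137, 151, 136 and 124 CPM in intruder libraries and 209, 189, 191, 158 and 150.2 CPM in controls. Intruder 3 overlapped control 6 for Matk, and the change was -0.38 ± 0.078 (SE; adjusted p 0.0282).

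Bckdk, which inhibits the breakdown of branched-chain amino acids, was at 23.9, 24.0, 24.0, 25.3 and 25.7 CPM in intruder libraries and 27.2, 27.8, 27.1, 28.4 and 28.5 CPM in controls, a change of -0.18 ± 0.037 (SE; adjusted p 0.0261). Commd4 was at 24.8, 24.8, 26.4, 25.8 and 25.1 CPM in intruder libraries and 35.5, 29.7, 29.7, 27.9 and 30.3 CPM in controls, a change of -0.27 ± 0.055 (SE; adjusted p 0.0261). Neither gene had overlapping groups. Ssr4, a subunit of the translocon-associated complex, was at 30.3, 30.7, 30.2, 29.9 and 28.6 CPM in intruder libraries and 38.2, 35.4, 36.3, 34.1 and 30.2 CPM in controls. Control 6 fell within the intruder range, and the change was -0.22 ± 0.044 (SE; adjusted p 0.0261).

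Wdr83, a WD repeat scaffold, was at 16.7, 18.8, 18.1, 18.4 and 18.1 CPM in intruder libraries and 21.5, 20.1, 21.0, 20.5 and 20.2 CPM in controls, a change of -0.20 ± 0.038 (SE; adjusted p 0.0198). The uncharacterised 0610037L13Rik was at 43.6, 41.7, 43.9, 46.9 and 39.5 CPM in intruder libraries and 53.5, 54.5, 53.8, 51.6 and 49.0 CPM in controls, a change of -0.28 ± 0.052 (SE; adjusted p 0.0182). The unnamed ENSMUSG00000091750 was at 6.33, 6.69, 6.96, 6.79 and 6.57 CPM in intruder libraries and 9.03, 8.92, 9.93, 8.35 and 7.90 CPM in controls, a change of -0.40 ± 0.083 (SE; adjusted p 0.0261). No library of one group reached the other in any of the 3. Without use of neighbouring annotation, reads of overlapping genes cannot be told apart here.

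Among the 42 lower genes Ssu2 and Mep1a fell most on the log2 scale, at very low levels. Mep1a, a secreted metalloprotease, was at 0.223, 0.145, 0.137, 0.162 and 0.123 CPM in intruder libraries and 0.270, 0.426, 0.451, 0.372 and 0.406 CPM in controls, a change of -1.26 ± 0.25 (SE; adjusted p 0.0218). Ssu2 was at 0.122, 0.103, 0.160, 0.0811 and 0.0821 CPM in intruder libraries and 0.404, 0.192, 0.301, 0.394 and 0.135 CPM in controls, a change of -1.36 ± 0.31 (SE; adjusted p 0.0379). The groups were apart for Mep1a and overlapped for Ssu2 through control 6 and intruder 3. At such levels a library held few reads of the gene, so counting error adds to the spread between animals.

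Immediate-early genes were not called at this time. Of 20 tested, 0 were called and 1 was higher at an unadjusted p below 0.05, the kinase Sik1 at 0.21 ± 0.10 (adjusted p 0.318). The list median was 0.05. Among the best known activity markers, Arc was at 0.24 ± 0.22, Npas4 at 0.23 ± 0.16 and Egr1 at -0.01 ± 0.12, each with overlapping groups. Of 15 later activity-dependent genes 0 were called, with a median of 0.04.

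Glucocorticoid-responsive genes had a median of 0.00, with 9 members above and 9 below 0 and 0 called by edgeR (2 higher at an unadjusted p below 0.05, all genes 7.45%). DESeq2 called 1 higher (all genes 1.12%), as did edgeR without control 4. Fkbp5, the co-chaperone of the receptor that is the usual readout of hormone exposure, was at 73.3, 65.3, 67.4, 75.4 and 77.8 CPM in intruder libraries and 69.2, 79.0, 67.9, 79.6 and 65.0 CPM in controls, a change of -0.01 ± 0.11 (adjusted p 0.984). Per1 was at 0.01 ± 0.11 and Tsc22d3 (Gilz) at 0.24 ± 0.14. Pdk4, a kinase that limits glucose oxidation, and Errfi1, a feedback inhibitor of the EGF receptor, were at 0.39 ± 0.12 and 0.27 ± 0.082 (adjusted p 0.102 and 0.111).

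By edgeR no member was called of 46 neuropeptide, hormone and receptor genes, 36 glutamate and GABA receptor subunits, 30 monoamine genes, 50 chromatin regulators, 19 clock genes, 83 nuclear oxidative phosphorylation genes, 12 mitochondrially encoded genes or 78 ribosomal protein genes. Somatostatin (Sst) was at -0.18 ± 0.081 and the neurokinin receptor Tacr3 at 0.57 ± 0.28, both at an unadjusted p below 0.05. Grin1, the obligate NMDA receptor subunit, was at -0.20 ± 0.064 (adjusted p 0.128). Hdac3, a histone deacetylase, came nearest to a call among chromatin regulators, at -0.19 ± 0.046 (adjusted p 0.0522). DESeq2, RLE scaling, upper-quartile scaling, a mean CPM of at least 1 and the replicate block each called 1 chromatin regulator lower (DESeq2 called 216 of all 17277 genes lower), as did the fits without control 2, control 4, control 6, intruder 2 or intruder 3. The GC and length correction called 1 higher, and the replicate block called 1 glutamate or GABA receptor subunit lower. Ribosomal protein genes lay a little below 0 in 72 of 78 cases with a median of -0.07, and 9 were lower at an unadjusted p below 0.05 (all genes 7.69%). Without control 1 the count below 0 was 45 of 78 and 1 member was lower at that level, and after the correction for GC content and length 45 were below 0 and 4 lower. Of 4 tested nuclear noncoding RNAs 0 were called.

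The time course was read by testing whether the intruder effect in amygdala at 120 min differed from the mean effect at 30 and 60 min. This called 9 genes (0.0521%), 5 higher (0.0289%) and 4 lower (0.0232%), with 2130 (12.3%) at an unadjusted p below 0.05. The deposited column names mark all 30 min libraries ISO and all 60 and 120 min libraries CERV, marks they do not explain, so at 30 min the mark and the time cannot be told apart. Against 60 min alone, within 1 mark, 2 genes (0.0116%) were called by edgeR (1580 unadjusted) and 56 by DESeq2. The 2 called by edgeR were Cdc25b and Scarna13, and none of the genes called at 120 min was among them. The leading index followed condition at 60 min as well. There the intruder libraries shared 1 index, and every control but control 1 carried the index of most intruder libraries at 120 min. The part of the index in this contrast was not tested. These tests of time share their 120 min libraries with the comparison above and are not independent of it. Nufip2 had log2 fold changes of -0.09 ± 0.058 at 30 min, 0.05 ± 0.058 at 60 min and 0.36 ± 0.058 at 120 min. Csf2ra was at 0.06 ± 0.067, 0.09 ± 0.068 and -0.42 ± 0.068 at those times. Uba6 was at -0.09 ± 0.055, -0.03 ± 0.055 and 0.32 ± 0.055. The earlier values of these 3 genes lay close to 0. Mep1a was at 0.62 ± 0.24 (unadjusted p 0.0168), 0.07 ± 0.25 and -1.26 ± 0.25, so its value at 30 min, in the libraries of the other column mark, had the opposite sign. Leaving out 1 of the 10 libraries at 120 min moved the count to between 0 and 58, with 0 without control 1, control 2, control 3 or intruder 6 and 58 without control 6. The remaining called genes were Anp32e, Canx, Ints8, Ubxn11, Mep1a and Scarna13, a small Cajal body RNA named after its value was seen. Scarna13 was not called at 120 min (-0.89 ± 0.24, adjusted p 0.0749) and lay at 1.06 ± 0.24 at 60 min. At 30 and at 60 min by themselves 0 genes were called by edgeR and 0 by DESeq2. The unadjusted p was below 0.05 for 473 genes (2.74%) and 1232 genes.

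The 51 higher genes had a median log2 fold change of -0.06 at 30 min and 0.03 at 60 min in amygdala, 0.10 in hypothalamus at 120 min and 0.08 in frontal cortex at 120 min. The 42 lower genes had medians of 0.02, 0.03, -0.08 and -0.07 in the same order, over 41 genes in the latter regions. Of the higher genes 48 were above 0 in hypothalamus and 45 in frontal cortex, against 51.0% and 49.1% of all genes tested. Of the lower genes 36 and 37 of 41 were below 0. Slc5a3 was at 0.35 ± 0.083 and 0.46 ± 0.11 there. In frontal cortex the leading index and the condition cannot be told apart, and in hypothalamus some controls carried another index. Dpysl2, a collapsin response mediator of axon growth named after its values were seen, was the one higher gene also called in hypothalamus (all genes 0.0226% higher), at 0.38 ± 0.075 (adjusted p 0.0282) against 0.26 ± 0.057 in amygdala. A difference of the effect between amygdala and hypothalamus was called for 0 genes by edgeR (1514 or 8.59% unadjusted) and 0 by DESeq2. Between amygdala and frontal cortex it was called for 0 genes by edgeR (780 unadjusted) and 4 by DESeq2.

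Base composition moved with the comparison. The called higher genes had a median exon GC content of 42.1% and a median transcript length of 5208 bases, the called lower genes 53.6% and 2568 bases, and all tested genes 49.8% and 3223 bases. Over quintiles of all tested genes from lowest to highest GC content, the median log2 fold change ran 0.07, 0.03, -0.00, -0.03 and -0.07. Of the called higher genes 30 lay in the lowest quintile and 0 in the highest, and of the lower genes 1 and 13. By transcript length the medians ran from -0.06 in the shortest to 0.06 in the longest quintile. The GC tilt of a library, the mean log2 level of the highest minus the lowest GC quintile relative to all 10 libraries, was -0.0182, -0.0593, -0.0506, -0.0797 and -0.0491 in intruder libraries. In controls it was 0.183, 0.0956, 0.00656, -0.0167 and -0.0119. The groups did not overlap, and control 1 and control 2 had the strongest tilt. After a correction for GC content and length, chosen after seeing the data, 19 genes were called, 9 higher and 10 lower, and 15 of them were among the 93. They included Nufip2, Uba6, Nbeal1, Hmox1, Csf2ra, Ly6c1 and Rgs5, but not Rc3h1, Canx, Chordc1 or Hsph1. Without control 1 the count of called genes was 6, without control 3 it was 7, without intruder 6 it was 9 and without control 6 it was 218.

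**Figure D4:**
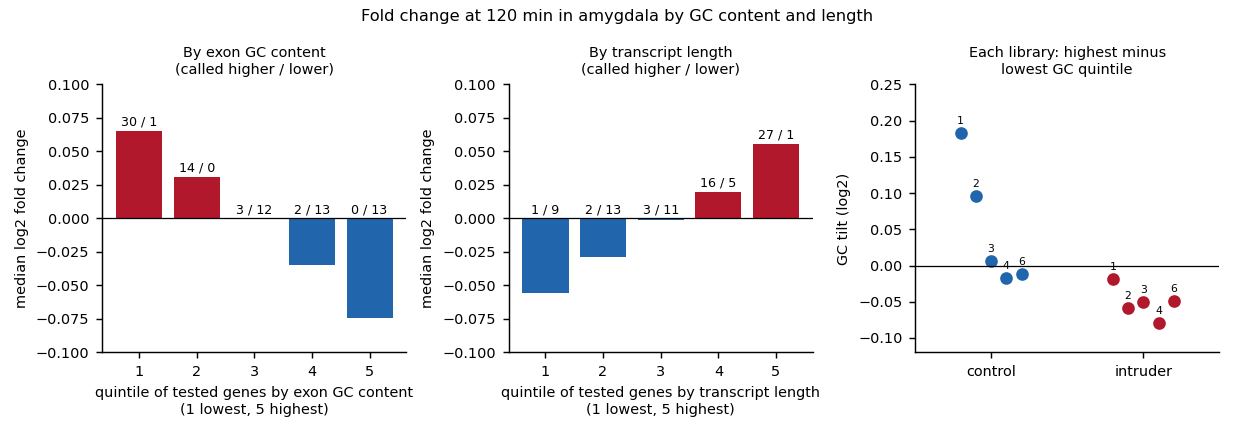
Left and middle, median log2 fold change in quintiles of tested genes by exon GC content and by transcript length, with the numbers called higher and lower above each bar. Right, the GC tilt of each library by condition, highest in control 1 and control 2.

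Some of the other cell type markers varied widely between libraries. All 14 oligodendrocyte markers were above 0 with a median of 0.40 and none called, and their sum was 3490.4, 4649, 7235, 7248 and 5916 CPM in intruder libraries and 5235, 2719, 2945, 4218 and 5765 CPM in controls. All 14 striatal markers were above 0 with a median of 0.55 and none called, and that median was 1.15 without control 6 and 0.28 without intruder 3. All 7 excitatory neuron markers were below 0 with a median of -0.38 and none called. Astrocyte markers had a median of 0.09 and broad neuronal markers -0.02. The part of these differences in the calls above was not tested.

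**Figure D5:**
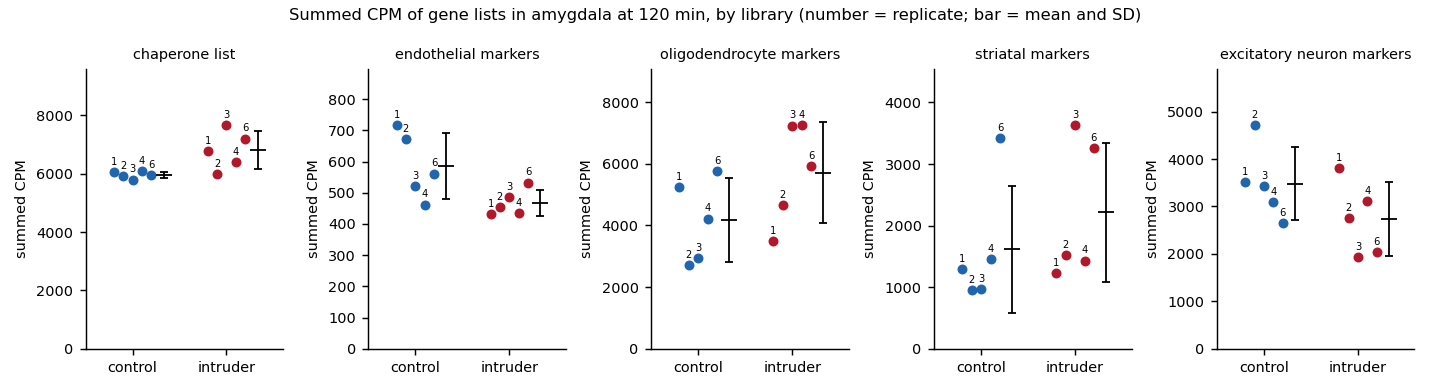
Summed CPM of 5 gene lists in each amygdala library at 120 min, controls in blue and intruder libraries in red, with the mean and SD beside the points. Chaperone sums are level in controls and spread in intruder libraries, endothelial sums are highest in control 1 and control 2, and striatal sums are high in intruder 3, intruder 6 and control 6.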

How the data were processed

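Poly(A)-selected, strand-specific single-end libraries were sequenced from dissected tissue, per the labels' protocols. The submitters' processing notes name CASAVA 1.8.2, TopHat2 2.0.8, HTSeq 0.6.1, edgeR 3.2.4, R 3.0.0 and the build NCBIM37, without their settings. The authors deposited counts, whole reads per Ensembl gene and library, for 37991 genes, with 0 unmatched columns. The 5 rows of unassigned reads were left out. Symbols came by identifier from Gencode M21, which named 32919 genes. The share of reads on unnamed genes was 0.72% or less. Reads that align to several genes were not assigned, so close paralogs are uncertain.

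All 30 amygdala libraries (6 groups) were fitted with edgeR 4.0.16 under R 4.3.3: filterByExpr, TMM scaling, quasi-likelihood F test, two-sided, Benjamini-Hochberg adjusted p below 0.05 over all 17277 genes tested. The common coefficient of variation between animals was 14.1%. The effect at 120 min was also set against the mean of 30 and 60 min. Regions at 120 min were fitted jointly (32 libraries) with the animal as a block. Values are CPM from TMM-scaled totals. Log2 fold changes are intruder minus control. Alternatives used DESeq2 1.42.0, limma 3.58.1 (voom), other scalings and filters, blocks, and each library left out. The fit was tried on simulated data without index, GC or dissection differences. There it called 47.76% of the changes by a factor of 1.25.

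The comparison, the 14 pathway and 18 marker lists and the tests were chosen with earlier results of these data known. The text names called genes: the 12 per direction with the smallest adjusted p and the 5 with the greatest change are given by library. It also names members of the lists, and it says where another gene or grouping was chosen after its values were seen. Exon GC content and transcript length came from Gencode M21, and promoters from RefSeq on GRCm38.p6. P-values measure the spread between these animals. The reads carry no molecular identifiers.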

Additional observations from a re-analysis of the deposited data

Results flagged for a closer look

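Within each group of 5 libraries, a value standing apart was sought by Dixon's test (critical value 0.71) in 110 groups of values. Chance gives about 1 in 20, and 5 were found, no more than chance gives. Ints8 was low in intruder 4, at 37.3 CPM against 39.7 to 40.0 CPM in the other intruder libraries. Csf2ra was high in intruder 3, at 29.5 CPM against 23.9 to 24.5 CPM. Summed astrocyte markers were high in intruder 4, at 8747 CPM against 7641 to 7820.0 CPM. Summed striatal markers were high in control 6, at 3420.0 CPM against 958 to 1450.0 CPM in the other controls. Summed hippocampal markers were high in control 3, at 29.6 CPM against 21.8 to 22.7 CPM.

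In 8 of the genes called at 120 min the intruder effect differed, by the edgeR contrast itself, from its mean at 30 and 60 min in amygdala. The difference on the log2 scale was 0.38 for Nufip2 (adjusted p 0.0385), 0.38 for Uba6 (0.0286), 0.27 for Anp32e (0.0272), 0.24 for Canx (0.0408) and 0.26 for Ints8 (0.0498). It was -0.49 for Csf2ra (0.0272), -0.46 for Ubxn11 (0.0498) and -1.61 for Mep1a (0.0385), whose effect was 0.62 at 30 min and 0.07 at 60 min. These libraries at 120 min are those on which the 8 genes were called. Against 60 min alone edgeR called none of the 8, and the 30 min libraries carry another mark in the column names, so the mark and the time cannot be told apart there. At 60 min most controls carried the leading index of most intruder libraries at 120 min.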

How the results depend on the processing

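The count of 93 called genes became 409 with DESeq2 (193 higher, 216 lower), 12 with no filter on low counts, 19 after correction for GC content and length, 0 with the index as a block and 0 in a fit of the 2 groups alone. Limma voom called 80 and RLE scaling 97. A mean CPM of at least 1 gave 122, and upper-quartile scaling gave 134, with 50 higher and 84 lower. Leaving out 1 library gave 6 to 218 genes. The count for the difference between times, 9 genes, became 222 with DESeq2, 1 without the filter, 4 at a mean CPM of at least 1, 2 with 60 min alone as the earlier time (added after seeing the data), 0 with the index as a block, and 0 to 58 when a library was left out. The difference from frontal cortex, 0 genes by edgeR, was 4 with DESeq2 and 0 to 1 when a library was left out. The cause of these shifts was not tested.

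The main fit did not pair samples by replicate number. Deviations of same-numbered libraries correlated at -0.09, 0.14, -0.35, 0.04 and 0.56, with no common sign. These values do not settle whether the numbers pair the animals. With the replicate block 199 genes were called (79 higher, 120 lower), and 0 for the difference between times. The replicate block with the GC and length correction gave 0 and, in the 2 groups alone, 0.

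Over the 93 genes and their alternatives, 947 of 2042 fits kept the call, 1095 lost it and 0 reversed the direction. Nufip2, Uba6 and Csf2ra kept theirs in 18 of 22. Most changes are small and rest on a spread estimated from 30 libraries. At 44.3 to 52.4 M reads, genes far below 1 CPM carry counting error.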

Other observations

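Other called genes, named here after their values were seen, include receptors and enzymes of protein glycosylation. Bmpr1a, a receptor for bone morphogenetic proteins, rose by 0.23 ± 0.049 (SE; adjusted p 0.0342), and Lgr4, a receptor for R-spondins that strengthens Wnt signalling, by 0.23 ± 0.049 (SE; adjusted p 0.0324), both on the log2 scale and without overlap between groups. Ikzf2 (Helios), a zinc finger transcription factor, rose by 0.37 ± 0.089 (SE; adjusted p 0.0453). Acer3, an alkaline ceramidase, rose by 0.25 ± 0.058 (SE; adjusted p 0.0431). Uty, a Y-linked gene, was also higher, at 0.24 ± 0.054 (SE; adjusted p 0.0357), in these male residents.

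Among the lower genes, Dpm2, a subunit of dolichol-phosphate mannose synthase, was at -0.20 ± 0.044 (SE; adjusted p 0.0342) and Pomgnt1, which extends O-mannose glycans, at -0.13 ± 0.031 (SE; adjusted p 0.0438). Slc35b2, the transporter that brings the sulphate donor into the Golgi, was at -0.27 ± 0.063 (SE; adjusted p 0.0453). Ppox, an enzyme of haem synthesis, was at -0.32 ± 0.074 (SE; adjusted p 0.0410). Adam15, a membrane metalloprotease, was at -0.25 ± 0.059 (SE; adjusted p 0.0455). Adjusted p-values are from the edgeR quasi-likelihood test. Ppox and Pomgnt1 had overlapping groups, and the other 3 lower genes did not. After the correction for GC content and length none of these 10 genes was called, with adjusted p-values from 0.0757 for Ppox to 0.477 for Acer3. They were not tested as groups.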
